A study of Drosophila melanogaster with 8 samples.

Results

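Midguts of larvae in the third instar that are homozygous for the Pngl[ex14] null allele were studied. They were compared with midguts of larvae that have the same alleles and, in addition, 1 copy of a Pngl genomic transgene. Other differences in genetic background between the genotypes were not analysed here. RNA was sequenced from 2 libraries of Pngl-/- (y w; Pngl[ex14]/Pngl[ex14]) and 2 libraries of Pngl-/-; Pngl Dp/+ (the same alleles with PBac{Pngl[wt]Ch322-3O13}, the rescue libraries), which are 4 of the 8 libraries of the series. The 2 libraries of Pngl+/- (y w; Pngl[ex14]/CyoKr>GFP, over a balancer chromosome) and the 2 of y w, wild type for Pngl, entered the model fit and are given beside some results. Larvae of all 4 genotypes carry the yellow and white mutations, were collected 96 hours after egg laying, and were pooled over males and females. The transgene is a genomic clone, and which genes beside Pngl it holds was not analysed here. The sample labels name VK27 as its landing site on the chromosome and the methods of the study name another, so the site is uncertain. All genes of the count table were described, and 7665 of 17713 passed the filter on low counts.

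Pngl encodes the fly orthologue of NGLY1, a cytosolic N-glycanase that removes sugar chains from misfolded glycoproteins sent out of the endoplasmic reticulum for degradation. In mammals and worms this enzyme is needed to activate the transcription factor NRF1 (SKN-1A in worms), which raises the genes of proteasome subunits. Cnc is the fly member of that family of factors. The larval midgut digests food, takes up lipids and sugars, and answers microbes with antimicrobial peptides. It is wrapped in visceral muscle and lies beside the fat body, the organ that stores lipid and serves as the larva's liver.

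The targeted gene was measured first, as a check of the labels. Pngl (FBgn0033050, chr2R:6017739-6020695; dm6) had 57.99 and 56.4 CPM in the libraries labelled Pngl-/-, against 21.03 and 20.6 CPM in the rescue libraries. CPM are counts scaled to the size of the library, with TMM factors that allow for a few abundant genes taking up reads. Both libraries labelled Pngl-/- lay above both rescue libraries (log2 fold change 1.46 with SE 0.06, edgeR quasi-likelihood adjusted p = 1.02e-11), and also above 44.8 and 41.3 CPM in Pngl+/- and 33.4 and 31.2 CPM in y w. The level of Pngl mRNA was therefore not lower under the null label. A null allele is named for lost function, so the mRNA level alone cannot check that label. Directions are given by the labels as they stand. Strica, a caspase gene on the other strand, shares 385 bases of exon with Pngl, and whether the counting used strand is not given in the methods. Strica had 32.9 and 31.8 CPM in the libraries labelled Pngl-/-, against 20.98 and 21.4 CPM in the rescue libraries, with no overlap between the genotypes (log2 fold change 0.61 with SE 0.06, edgeR quasi-likelihood adjusted p = 1.45e-07). The white gene, an eye pigment transporter that the vectors of such genomic clones carry as a marker, had 1 and 0 counts in the libraries labelled Pngl-/-, against 30 and 42 counts in the rescue libraries. It was at least 8.73-fold lower in the libraries labelled Pngl-/-, with 3 counts per library taken as the floor. Pngl+/- libraries held 71 and 59 counts of white and y w libraries 1 and 7.

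The NRF1 orthologue cnc had 101 and 101 CPM in the libraries labelled Pngl-/-, against 138 and 141 CPM in the rescue libraries. Both values were lower in the libraries labelled Pngl-/-, but the fold change was under 1.5 (log2 fold change -0.47 with SE 0.04, edgeR quasi-likelihood adjusted p = 1.69e-08). With the length offsets described below, the direction of cnc turned, to a log2 fold change of 0.60, and it was called higher. Keap1, which encodes the protein that holds Cnc back in the cytosol, had 15.7 and 14.8 CPM in the libraries labelled Pngl-/-, against 9.15 and 8.18 CPM in the rescue libraries. It was higher in the libraries labelled Pngl-/- with no overlap (log2 fold change 0.83 with SE 0.10, edgeR quasi-likelihood adjusted p = 1.94e-06).

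Totals lay between 20414011 and 28382919 counts per library over all 8 libraries. The libraries labelled Pngl-/- held counts for 11765 and 11836 genes, against 13637 and 13916 genes in the rescue libraries. On the first principal component, which carried 61.0% of the variance over the 8 libraries, they lay at 44.9 and 45.0, against -22.1 and -21.3 for the rescue libraries. The chi-square statistic of replicate counts was 2.51 per gene in Pngl-/- and 14.3 in the rescue libraries, more than re-sequencing of 1 library would give. It cannot tell separate pools of larvae from separate preparations of 1 pool. The common dispersion of the fit was 0.0019, and the p-values rest on this small spread between replicates. Pseudogenes of ribosomal RNA took 6051 CPM in rescue replicate 2 and 1804 CPM in replicate 1, while the libraries labelled Pngl-/- held 2141 and 1971 CPM. The chi-square statistic sums over genes, so abundant genes such as these pseudogenes weigh heavily in the 14.3. Their share of it was not counted.

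Of the 7665 genes tested, 924 were higher in the libraries labelled Pngl-/- (12.1%) and 1703 were lower (22.2%). A call needed a difference of 1.5-fold or more together with an adjusted p (Benjamini-Hochberg) no higher than 0.05. The median log2 fold change of all genes tested was -0.02. The counts of every gene list below stand beside these shares and this median. By the adjusted p alone 5671 of the 7665 genes passed, so a difference between the genotypes was common. Some lists below carry a count of members whose Pngl-/- libraries lay above or below all other libraries. The share of all genes tested with that placing was not counted. Of the genes called, 322 were higher and 890 lower at least 2-fold, and 31 were higher and 56 lower at least 8-fold. The split depended on the scaling. Of the called genes, 35.2% were higher, whereas with TMM factors computed on all genes 53.5% were higher (1541 higher, 1339 lower). Without composition normalization 11.8% were higher (373 higher, 2778 lower). The first of these scalings moved the median of all genes by 0.16 and the second by -0.34, and no gene called in both turned its direction.

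**Figure D1:**
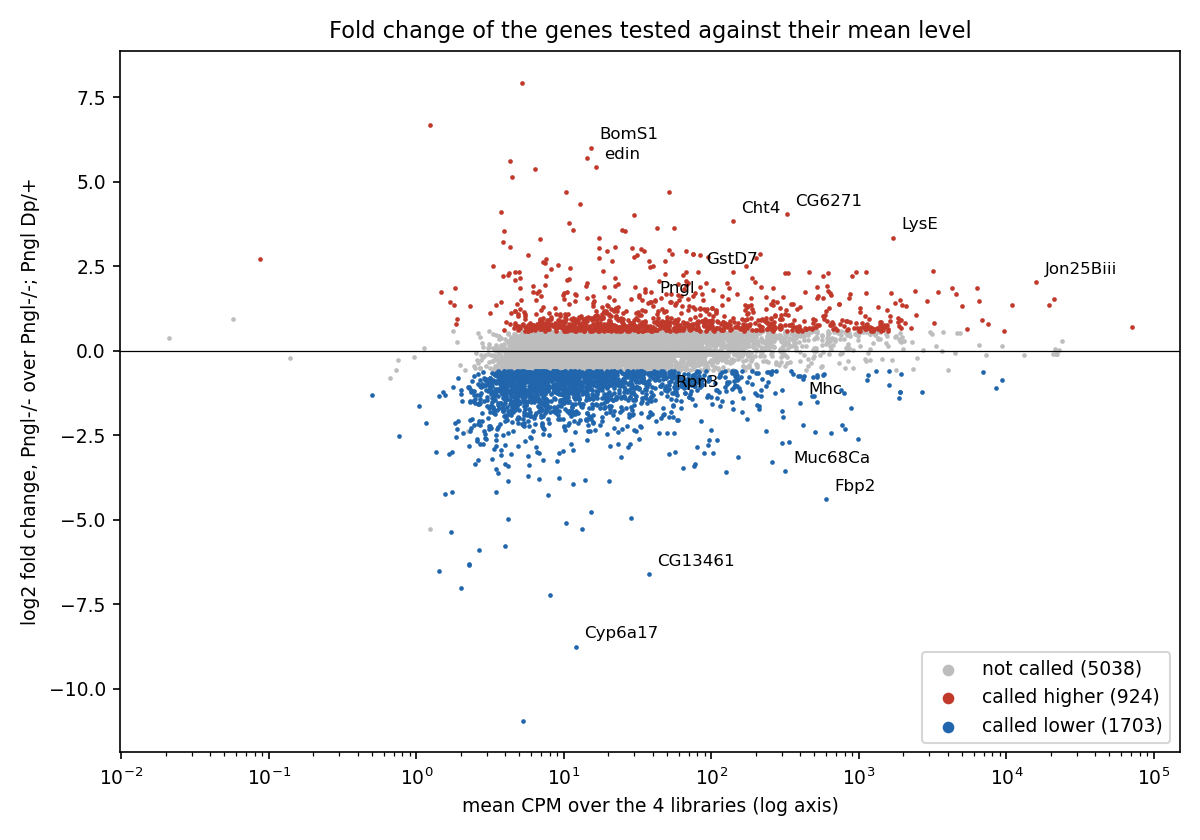
Log2 fold change of each of the 7665 genes tested, Pngl-/- over Pngl-/-; Pngl Dp/+ (vertical axis), against its mean CPM over the 4 libraries (horizontal log axis). Red points are the 924 genes called higher, blue points the 1703 called lower and grey points those not called. Among the genes named in the plot BomS1 is the highest and Cyp6a17 the lowest. Points of genes with almost no counts in 1 genotype, among them the highest and the lowest, are fitted values and no bounds.

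Fold changes followed the length of the gene. The median log2 fold change was 0.25 over 191 genes with under 500 bases of exons, 0.30 over 1082 genes of 500 to 1000 bases and 0.18 over 2441 genes of 1000 to 2000 bases. It was -0.07 over 2348 genes of 2000 to 4000 bases, -0.53 over 1189 genes of 4000 to 8000 bases and -1.05 over 353 genes of 8000 bases or more. In the longest class 270 of 353 genes were called lower (76.5%) and 0 higher. Among genes of 500 to 1000 bases 251 were higher and 145 lower. Each of the 4 pairs of 1 library per genotype gave a median between -1.04 and -0.98 in the longest class, while the replicates differed there by -0.0017 in Pngl-/- and -0.0041 in the rescue libraries. The libraries labelled Pngl-/- are common to further contrasts, in which the longest class had a median of -1.27 against y w and -0.48 against Pngl+/-. The rescue libraries against y w gave -0.14. The part of RNA quality or library preparation in this trend was not tested.

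Because many gene groups are made up of mostly long or mostly short genes, the fit was repeated with offsets that set the median of each of 6 length classes equal in every library, an alternative chosen after seeing the data. It called 841 genes higher (11.0%) and 1270 lower (16.6%). Of the 924 genes higher in the first fit, 603 were called higher in the second, and of the 1703 lower, 1128 were called lower. Such offsets remove any difference that the genes of a length class share, whatever its source. Values from this fit are given below as "with length offsets".

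**Figure D2:**
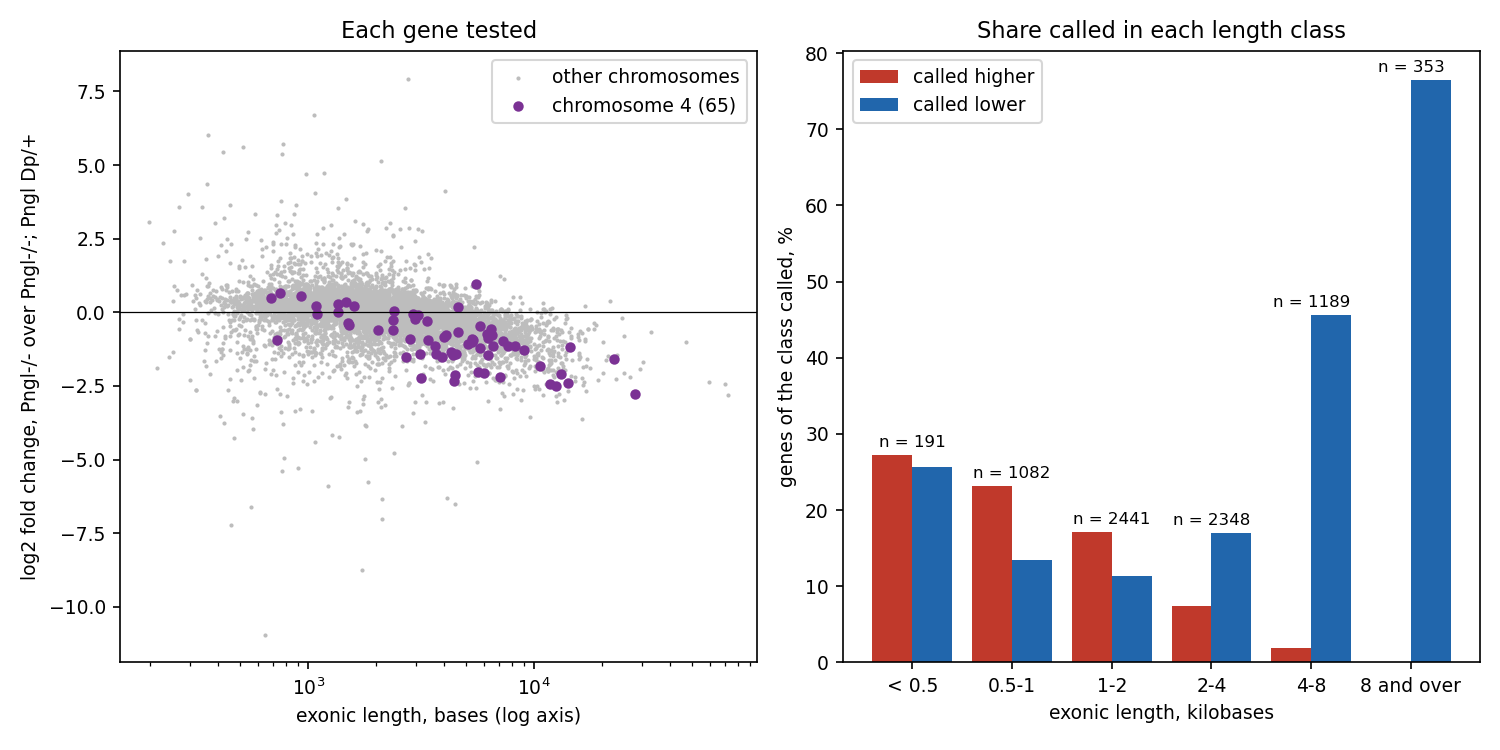
Left, log2 fold change of each gene tested (Pngl-/- over Pngl-/-; Pngl Dp/+) against exonic length in bases on a log axis, with the 65 genes of chromosome 4 in purple. Right, the percentage of the genes of each length class called higher (red) and lower (blue), with the number tested above. The share called lower reaches 76.5% among genes of 8000 bases or more, where no gene was called higher.

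Genes of the proteasome, the particle that degrades ubiquitin-tagged proteins, fell together in the libraries labelled Pngl-/-. Of the 33 subunit genes tested, 32 were lower and 0 higher, with a median log2 fold change of -0.97, beside 22.2% lower and a median of -0.02 over all genes tested. All 33 had both libraries labelled Pngl-/- below both rescue libraries, and below the other 4 libraries as well. That placing was not counted over all genes tested. The 14 genes of the core particle, which holds the cutting sites, had 13 lower and a median of -0.86. Prosalpha6 (FBgn0250843, chr2L:10221351-10222546), a subunit of its outer ring, had 39.95 and 38.96 CPM in the libraries labelled Pngl-/-, against 99.6 and 103 CPM in the rescue libraries (log2 fold change -1.36 with SE 0.05, edgeR quasi-likelihood adjusted p = 7.61e-13). Prosbeta5, the subunit with chymotrypsin-like activity, had 66.3 and 71.1 CPM in the libraries labelled Pngl-/-, against 123 and 125 CPM in the rescue libraries (log2 fold change -0.85 with SE 0.04, edgeR quasi-likelihood adjusted p = 6.90e-11). The exception was Prosalpha1, named after its values were seen, with 136 and 139.7 CPM in libraries labelled Pngl-/-, against 189.8 and 187 CPM in rescue libraries, with a log2 fold change of -0.45.

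All 19 tested genes of the regulatory particle, the cap that binds and unfolds tagged proteins, were lower, with a median of -1.02. Rpn1, a scaffold subunit of its base, had 38.5 and 40.6 CPM in the libraries labelled Pngl-/-, against 103 and 102 CPM in the rescue libraries (log2 fold change -1.37 with SE 0.04, edgeR quasi-likelihood adjusted p = 3.40e-13). Rpn3 (FBgn0261396, chr2L:19051790-19053681), a subunit of the lid, had 28.3 and 28.7 CPM in the libraries labelled Pngl-/-, against 71.8 and 71.96 CPM in the rescue libraries, and its log2 fold change was -1.33. Pomp, the chaperone that helps assemble the core particle, fell as well, with 30.6 and 30.5 CPM in libraries labelled Pngl-/-, against 67.5 and 64.00 CPM in rescue libraries, with a log2 fold change of -1.10, although 437 bases of its exons overlap vari on the other strand. Usp14, which trims ubiquitin at the proteasome, had a log2 fold change of -1.30. Subunit genes are short, with a median exonic length of 971 bases in the core and 1553 bases in the cap. With length offsets the medians were -1.15 and -1.18, and all 14 and all 19 were called lower. Both medians were below 0 under every scaling tried.

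Genes of the endoplasmic reticulum, where the substrates of Pngl arise, were seldom called. Of 22 tested genes of endoplasmic reticulum folding and degradation, 0 were higher and 1 lower, with a median of 0.03. Hsc70-3, the chaperone BiP, had 485 and 496 CPM in the libraries labelled Pngl-/-, against 475 and 492 CPM in the rescue libraries, and these values overlapped. Xbp1, the transcription factor of the unfolded protein response, had 299 and 295 CPM in libraries labelled Pngl-/-, against 291 and 285 CPM in rescue libraries, with a log2 fold change of 0.05 (edgeR quasi-likelihood adjusted p = 0.262). The one gene called was Atf6, a membrane-bound factor of the same response, with 22.4 and 21.5 CPM in libraries labelled Pngl-/-, against 37.9 and 41.4 CPM in rescue libraries, with a log2 fold change of -0.85, which was -0.32 and not called with length offsets. Autophagy genes, the other route of degradation, had 0 higher and 2 lower of 19. With length offsets this turned to 2 higher and 0 lower. The receptor gene ref(2)P had 388 and 387 CPM in libraries labelled Pngl-/-, against 354 and 361 CPM in rescue libraries and was not called.

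Antimicrobial peptide genes rose in the libraries labelled Pngl-/-. Of 16 tested, 15 were higher and 0 lower, with a median log2 fold change of 3.13, and of the 21 genes listed 5 did not pass the filter. Of those tested, 1 passed only through the libraries labelled Pngl-/-. edin (FBgn0052185, chr3L:17494880-17495300), a short induced peptide, had 33.2 and 30.8 CPM in the libraries labelled Pngl-/-, against 0.968 and 0.571 CPM in the rescue libraries (log2 fold change 5.43 with SE 0.14, edgeR quasi-likelihood adjusted p = 2.45e-14). DptB, a diptericin, had 103 and 105 CPM in the libraries labelled Pngl-/-, against 9.15 and 7.61 CPM in the rescue libraries, and AttA, an attacin, had 51.7 and 51.1 CPM in libraries labelled Pngl-/-, against 5.89 and 6.44 CPM in rescue libraries. The genotypes did not overlap for any of the 3 genes. AttB is a near copy of AttA, as CecA2 is of CecA1, so the share of reads given to each is uncertain. CecC, named after its values were seen, was the gene not called, with 25.1 and 22.2 CPM in libraries labelled Pngl-/-, against 23.6 and 24.7 CPM in rescue libraries and overlapping values.

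Most of these genes were also lower in the rescue libraries than in y w. For 15 of the 16 genes the mean of the rescue libraries was below that of y w. For 9 of the 16 both libraries labelled Pngl-/- lay above all 6 other libraries, a placing not counted over all genes tested. DptA is an example of the other kind, with 66.5 and 70.1 CPM in the libraries labelled Pngl-/-, against 23.4 and 22.99 CPM in the rescue libraries, and 118 and 113 CPM in Pngl+/- and 99.6 and 93.00 CPM in y w. Its libraries labelled Pngl-/- lay above those of the rescue libraries (log2 fold change 1.56 with SE 0.05, edgeR quasi-likelihood adjusted p = 5.87e-13) and below the remaining 4. DptB had 85.3 and 82.2 CPM in Pngl+/- and 87.3 and 84.6 CPM in y w.

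Bomanins are short peptides induced by Toll signalling. Of 16 genes of the Bomanin and Daisho kind, 6 passed the filter, and 5 of these passed only through the libraries labelled Pngl-/-, so that a difference was built into their selection. BomS1 (FBgn0034329, chr2R:18383949-18384378) had 29.5 and 30.8 CPM in the libraries labelled Pngl-/-, against 0.264 and 0.603 CPM in the rescue libraries (log2 fold change 6.02 with SE 0.16, edgeR quasi-likelihood adjusted p = 4.58e-14). BomS3 had 27.8 and 28.6 CPM in the libraries labelled Pngl-/-, against 0.572 and 0.507 CPM in the rescue libraries, with a log2 fold change of 5.71. With 1 library labelled Pngl-/- left out, all 5 genes called fell under the filter.

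Of 14 tested genes of peptidoglycan recognition and its regulators 4 were higher and 4 lower, beside 12.1% higher and 22.2% lower over all genes tested. PGRP-SD, a secreted receptor that presents peptidoglycan, had 59.3 and 65.1 CPM in the libraries labelled Pngl-/-, against 8.01 and 7.90 CPM in the rescue libraries (log2 fold change 2.97 with SE 0.07, edgeR quasi-likelihood adjusted p = 1.17e-14). PGRP-SC1a (FBgn0043576, chr2R:8709733-8710320), one of the amidases that break peptidoglycan down and damp the response, had 481 and 457 CPM in the libraries labelled Pngl-/-, against 1115 and 1097 CPM in the rescue libraries (log2 fold change -1.24 with SE 0.05, edgeR quasi-likelihood adjusted p = 1.67e-11). The level in the rescue libraries was the outlying one there, since PGRP-SC1a had 531 and 571 CPM in Pngl+/- and 529.9 and 601 CPM in y w. PGRP-SC1a and PGRP-SC1b are near-identical, so their separate counts are uncertain. PGRP-LB, another amidase, had 67.9 and 69.1 CPM in libraries labelled Pngl-/-, against 49.3 and 48.7 CPM in rescue libraries, with a log2 fold change of 0.48, under the minimum fold change.

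Of 19 Imd and Toll signalling genes, 1 was higher and 2 lower. SPE, the protease that cuts the ligand of Toll, had 15.9 and 14.8 CPM in the libraries labelled Pngl-/-, against 4.84 and 4.63 CPM in the rescue libraries (log2 fold change 1.70 with SE 0.11, edgeR quasi-likelihood adjusted p = 2.39e-09). Rel, the NF-kappaB factor at the end of the Imd pathway, had 75.2 and 78.6 CPM in libraries labelled Pngl-/-, against 71.8 and 70.7 CPM in rescue libraries and was not called. Tl, the Toll receptor, had 8.50 and 8.45 CPM in libraries labelled Pngl-/-, against 14.3 and 15.2 CPM in rescue libraries, with a log2 fold change of -0.80, which was -0.27 and not called with length offsets. The ligand gene spz had 4.35 and 3.91 CPM in libraries labelled Pngl-/-, against 7.35 and 7.48 CPM in rescue libraries, with a log2 fold change of -0.85.

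Of 7 lysozyme genes 3 were higher and 3 lower. LysE (FBgn0004428, chr3L:1212827-1213406) had 3076 and 3098 CPM in the libraries labelled Pngl-/-, against 315 and 291 CPM in the rescue libraries (log2 fold change 3.35 with SE 0.05, edgeR quasi-likelihood adjusted p = 7.39e-17). LysE was higher still in Pngl+/-, at 6219.8 and 6290.5 CPM. LysX had 19.02 and 19.4 CPM in the libraries labelled Pngl-/-, against 246 and 216 CPM in the rescue libraries, a log2 fold change of -3.59. LysB to LysE are close copies of each other and share reads, so these values are uncertain by gene. The fat body and hemocytes also make antimicrobial peptides. The summed level of 7 fat body markers was 24628 and 24553 CPM in the libraries labelled Pngl-/-, against 34153 and 35458 CPM in the rescue libraries, and that of 6 hemocyte markers was 132 and 132 CPM in the libraries labelled Pngl-/-, against 199 and 205 CPM in the rescue libraries. Their part in the immune genes was not tested.

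Of 9 tested neutral lipases 6 were higher and 0 lower (median 1.21), and of 7 acid lipases 6 were higher and 0 lower (median 1.43). Of these 7 acid lipases 1 passed the filter only through the libraries labelled Pngl-/-. CG6271 (FBgn0039476, chr3R:27024968-27026109) lies in a cluster of such genes and had 627 and 606 CPM in the libraries labelled Pngl-/-, against 35.2 and 39.7 CPM in the rescue libraries (log2 fold change 4.04 with SE 0.07, edgeR quasi-likelihood adjusted p = 8.33e-16). Its neighbours CG6277 and CG6283 had log2 fold changes of 2.34 and 2.02. Lip3 (FBgn0023495, chr3R:13370240-13371904), an acid lipase that starvation induces, had 62.6 and 67.3 CPM in the libraries labelled Pngl-/-, against 10.3 and 10.2 CPM in the rescue libraries (log2 fold change 2.66 with SE 0.07, edgeR quasi-likelihood adjusted p = 2.15e-14). The intestinal lipase mag (magro) had 2557 and 2589 CPM in the libraries labelled Pngl-/-, against 946 and 966 CPM in the rescue libraries, a log2 fold change of 1.43. For CG6271 and Lip3 the level in the rescue libraries stood between that of the libraries labelled Pngl-/- and those of the other genotypes, with 1.65 and 2.99 CPM in Pngl+/- and 9.20 and 8.18 CPM in y w for CG6271. With length offsets 6 neutral and 6 acid lipases were higher.

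Enzymes that digest starch and sugars moved the same way more often than not. Of 14 maltase and amylase genes 8 were higher and 3 lower, with a median of 0.77. tobi, a glucosidase gene regulated by insulin and glucagon-like signals, had 8.14 and 9.29 CPM in the libraries labelled Pngl-/-, against 0.264 and 0.222 CPM in the rescue libraries (log2 fold change 5.15 with SE 0.22, edgeR quasi-likelihood adjusted p = 1.00e-11). This gene passed the filter only through the libraries labelled Pngl-/-, so that a difference was built into its selection. Mal-A1 had 165 and 166 CPM in the libraries labelled Pngl-/-, against 24.5 and 24.2 CPM in the rescue libraries, a log2 fold change of 2.76. Mal-A2 went the other way, with 2.23 and 1.98 CPM in libraries labelled Pngl-/-, against 7.48 and 6.91 CPM in rescue libraries, with a log2 fold change of -1.77.

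Of 29 serine proteases secreted into the gut, 14 were higher and 2 lower. Jon25Biii, a chymotrypsin-like protease of the Jonah family, had 26241 and 25129.9 CPM in the libraries labelled Pngl-/-, against 6564 and 6080.1 CPM in the rescue libraries (log2 fold change 2.02 with SE 0.06, edgeR quasi-likelihood adjusted p = 8.56e-14). yip7 was lower, with 5461 and 5430.5 CPM in the libraries labelled Pngl-/-, against 11417 and 11709 CPM in the rescue libraries and a log2 fold change of -1.09. The trypsin betaTry had 7072 and 6852 CPM in libraries labelled Pngl-/-, against 7841 and 7312 CPM in rescue libraries and was not called. Members of the Jonah family are alike in sequence, and their reads may be shared.

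Genes of lipid storage and mobilization had a median of -0.59, with 2 higher and 8 lower of 15. bmm, the adipose triglyceride lipase brummer, had 26.6 and 27.4 CPM in the libraries labelled Pngl-/-, against 40.7 and 40.8 CPM in the rescue libraries (log2 fold change -0.59 with SE 0.06, edgeR quasi-likelihood adjusted p = 1.32e-07), and it dropped under the minimum fold change with replicate 1 of Pngl-/- or either rescue library left out (log2 fold changes -0.57, -0.55 and -0.55). Lsd-1, a coat protein of lipid droplets, had 108 and 111 CPM in the libraries labelled Pngl-/-, against 192 and 198 CPM in the rescue libraries, a log2 fold change of -0.83. ACC, the acetyl-CoA carboxylase that starts fatty acid synthesis, had 57.8 and 58.4 CPM in the libraries labelled Pngl-/-, against 103 and 102 CPM in the rescue libraries, a log2 fold change of -0.82. ACC has 9067 bases of exons, and with length offsets its log2 fold change was 0.25. With the offsets the list had 3 higher and 2 lower and a median of -0.07. Without rescue replicate 1, 5 of its genes were lower.

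Of 13 fatty acid oxidation genes, 1 was higher and 3 lower, shares near those of all genes tested (12.1% and 22.2%). That count depended on the setting. With length offsets, and also with TMM factors on all genes, 4 were higher and 3 lower. Without composition normalization 0 were higher and 5 lower. whd, the mitochondrial carnitine palmitoyltransferase, had 47.7 and 46.03 CPM in the libraries labelled Pngl-/-, against 88.1 and 89.4 CPM in the rescue libraries (log2 fold change -0.92 with SE 0.04, edgeR quasi-likelihood adjusted p = 4.32e-11). Mcad, an acyl-CoA dehydrogenase, had 134 and 131 CPM in libraries labelled Pngl-/-, against 231 and 227 CPM in rescue libraries, with a log2 fold change of -0.79, though 1353 bases of its exons overlap CG7457 on the other strand. Of 10 sterol-binding genes 4 were higher and 2 lower (2 and 2 with length offsets). Npc2f, of the family of secreted sterol carriers, had 505 and 501 CPM in libraries labelled Pngl-/-, against 192 and 194 CPM in rescue libraries, with a log2 fold change of 1.38, and Npc1a, the endosomal sterol transporter, had 23.7 and 24.03 CPM in libraries labelled Pngl-/-, against 47.3 and 48.4 CPM in rescue libraries, with a log2 fold change of -1.003 (-0.47 with length offsets).

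**Figure D3:**
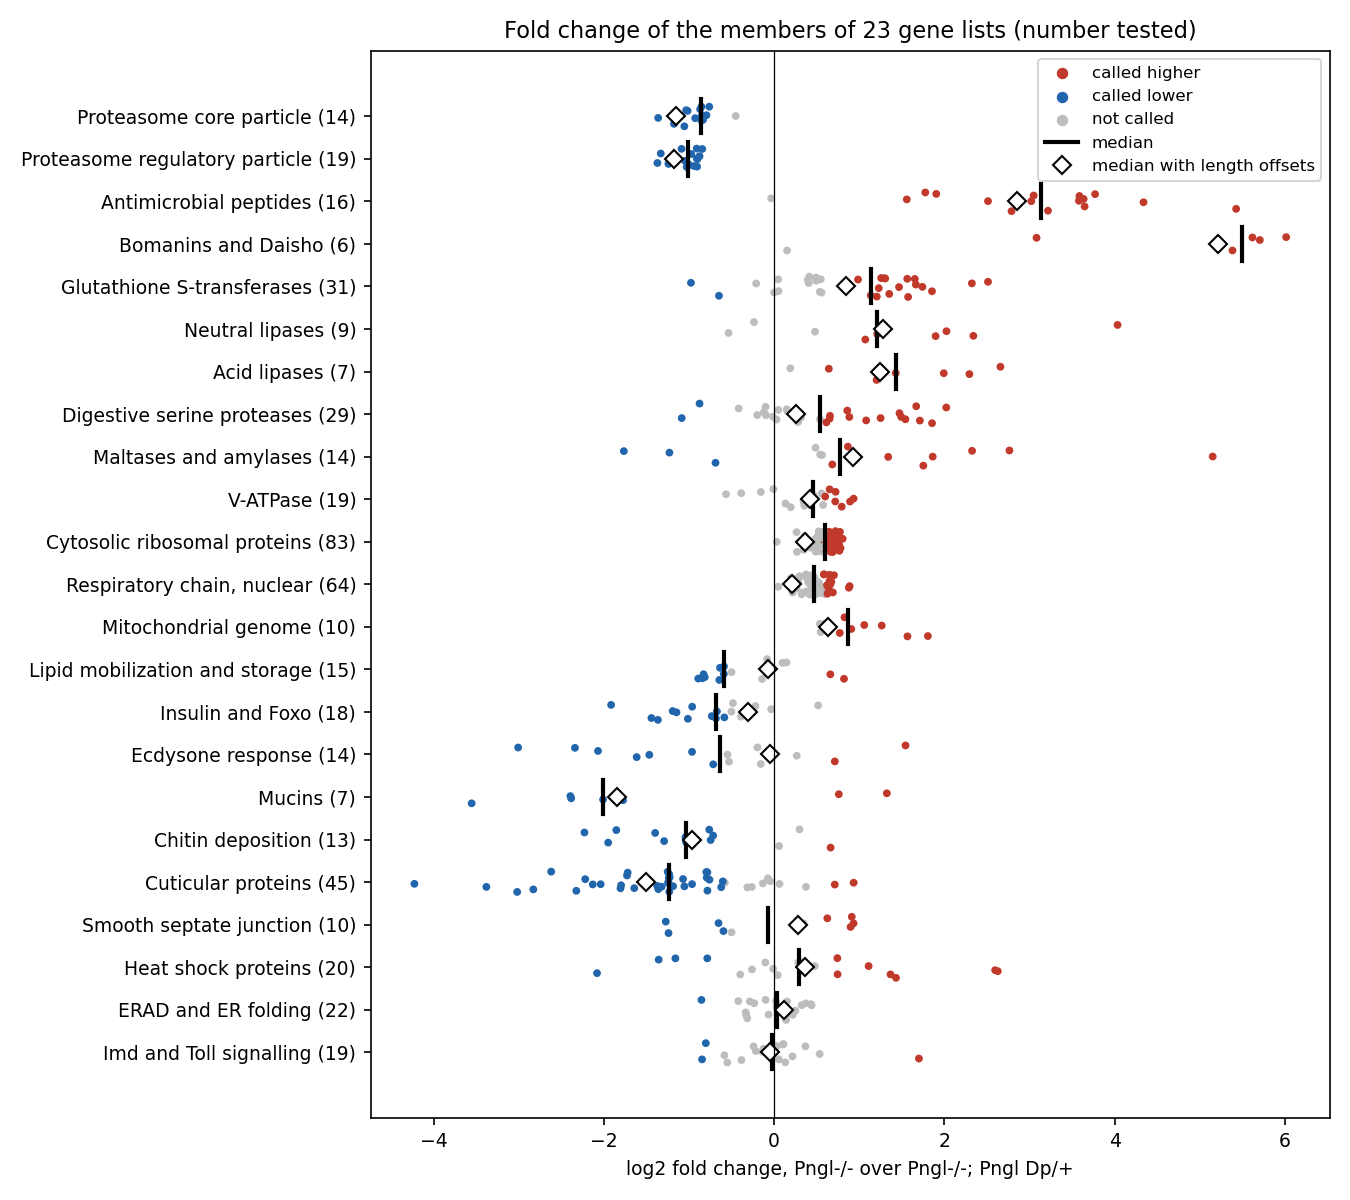
Log2 fold change (Pngl-/- over Pngl-/-; Pngl Dp/+, horizontal axis) of the tested members of 23 gene lists, with the number tested in brackets. Red points are genes called higher, blue points genes called lower and grey points genes not called. Black bars are medians and open diamonds are medians with length offsets. The 2 proteasome lists lie wholly below 0, and 15 of 16 antimicrobial peptide genes lie above 1.5.

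Glutathione S-transferases, which join glutathione to oxidized lipids and foreign compounds, were mostly higher. Of 31 tested, 17 were higher and 2 lower, with a median of 1.13 (0.85 with length offsets, and above 0 under every scaling). GstD8 had 71.04 and 65.2 CPM in the libraries labelled Pngl-/-, against 10.8 and 12.8 CPM in the rescue libraries (log2 fold change 2.51 with SE 0.07, edgeR quasi-likelihood adjusted p = 1.66e-13). GstD1, the major transferase of the class, had 1422 and 1362 CPM in the libraries labelled Pngl-/-, against 626 and 642 CPM in the rescue libraries, a log2 fold change of 1.13. For 21 of the 31 both libraries labelled Pngl-/- lay above all 6 other libraries, a placing not counted over all genes tested. GstD2 is one of these, with 278 and 273 CPM in the libraries labelled Pngl-/-, against 89.6 and 96.6 CPM in the rescue libraries, and 22.7 and 21.9 CPM in Pngl+/- and 14.6 and 14.96 CPM in y w.

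Both subunits of the enzyme that limits glutathione synthesis were higher. The catalytic subunit Gclc had 154 and 154 CPM in the libraries labelled Pngl-/-, against 91.6 and 88.6 CPM in the rescue libraries (log2 fold change 0.78 with SE 0.04, edgeR quasi-likelihood adjusted p = 3.34e-11), and the modifier subunit Gclm had 243 and 238 CPM in libraries labelled Pngl-/-, against 96.8 and 92.96 CPM in rescue libraries, with a log2 fold change of 1.34. Of 15 glutathione and thioredoxin genes 5 were higher and 1 lower. The lower gene was Duox, the oxidase that releases peroxide into the gut lumen, with 1.30 and 1.68 CPM in libraries labelled Pngl-/-, against 4.35 and 4.09 CPM in rescue libraries, with a log2 fold change of -1.49. Trxr1, the thioredoxin reductase, had 272 and 265 CPM in libraries labelled Pngl-/-, against 208 and 204 CPM in rescue libraries, with a log2 fold change of 0.38, under the minimum fold change. Of 12 metal-handling genes 3 were higher and 0 lower, among them the metallothionein MtnA, with 1839 and 1979.5 CPM in libraries labelled Pngl-/-, against 843 and 724 CPM in rescue libraries, with a log2 fold change of 1.29.

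Of 20 heat shock genes tested 7 were higher and 4 lower, beside 12.1% higher and 22.2% lower over all genes tested. The inducible chaperone Hsp70Aa had 12.95 and 12.2 CPM in the libraries labelled Pngl-/-, against 1.76 and 2.22 CPM in the rescue libraries (log2 fold change 2.63 with SE 0.13, edgeR quasi-likelihood adjusted p = 8.07e-11), while Pngl+/- stood above both with 31.6 and 32.8 CPM. The Hsp70 genes are near-identical copies, so their counts are not separate measurements. The small heat shock gene Hsp27 had 32.7 and 32.3 CPM in the libraries labelled Pngl-/-, against 141 and 135 CPM in the rescue libraries (log2 fold change -2.08 with SE 0.04, edgeR quasi-likelihood adjusted p = 3.35e-15), and Hsp26 had a log2 fold change of -1.36. Hsp22 was at 0 counts in all 8 libraries.

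Genes of the insulin and Foxo pathway, which couples growth to food, were lower where called, with 0 higher and 11 lower of 18 and a median of -0.68. The median exonic length of the list was 4862 bases, against a background in which genes of 4000 to 8000 bases had a median of -0.53. InR (FBgn0283499, chr3R:21570248-21619321), the insulin receptor, had 2.38 and 2.62 CPM in the libraries labelled Pngl-/-, against 8.84 and 9.96 CPM in the rescue libraries (log2 fold change -1.92 with SE 0.14, edgeR quasi-likelihood adjusted p = 7.53e-09). Ilp6, an insulin-like peptide, had 6.94 and 6.13 CPM in libraries labelled Pngl-/-, against 15.9 and 17.6 CPM in rescue libraries, with a log2 fold change of -1.37. Thor, the translation inhibitor 4E-BP and a classic Foxo target, is a short gene of 755 bases and had 190.0 and 187 CPM in the libraries labelled Pngl-/-, against 419 and 416 CPM in the rescue libraries (log2 fold change -1.15 with SE 0.03, edgeR quasi-likelihood adjusted p = 2.08e-13). Thor was high in the rescue libraries alone, with 193 and 190.3 CPM in Pngl+/- and 225 and 229 CPM in y w. foxo itself had 16.3 and 15.5 CPM in libraries labelled Pngl-/-, against 20.02 and 17.3 CPM in rescue libraries and was not called. With length offsets the list had 1 higher and 5 lower, and InR, Ilp6 and Thor stood at -0.85, -1.29 and -1.43.

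The response to ecdysone, the moulting hormone, had 2 higher and 7 lower of 14. EcR, the receptor, had 12.95 and 15.97 CPM in the libraries labelled Pngl-/-, against 39.7 and 40.4 CPM in the rescue libraries (log2 fold change -1.47 with SE 0.08, edgeR quasi-likelihood adjusted p = 3.56e-10), and with length offsets its log2 fold change was -0.40 and it was not called. The early gene br had 16.1 and 16.3 CPM in libraries labelled Pngl-/-, against 72.3 and 64.00 CPM in rescue libraries, with a log2 fold change of -2.07 (-1.002 with length offsets). ImpE2, an ecdysone-inducible gene of 1708 bases, had 9.43 and 10.2 CPM in the libraries labelled Pngl-/-, against 49.9 and 49.8 CPM in the rescue libraries (log2 fold change -2.34 with SE 0.07, edgeR quasi-likelihood adjusted p = 1.95e-13). The list's median was -0.63, and -0.05 with length offsets.

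JAK-STAT genes had 3 higher and 1 lower of 7 (1 and 0 with length offsets), and JNK genes 2 higher and 2 lower of 12, beside 12.1% higher and 22.2% lower over all genes tested. The largest rise was that of Socs36E, a feedback inhibitor of JAK-STAT, with 54.5 and 56.01 CPM in the libraries labelled Pngl-/-, against 16.2 and 14.7 CPM in the rescue libraries (log2 fold change 1.84 with SE 0.07, edgeR quasi-likelihood adjusted p = 2.29e-12). The cytokine gene upd3 did not pass the filter, with 70 and 72 counts in the libraries labelled Pngl-/-, against 26 and 44 counts in the rescue libraries. The JNK target puc had 42.6 and 44.2 CPM in libraries labelled Pngl-/-, against 28.8 and 28.2 CPM in rescue libraries, with a log2 fold change of 0.61, which was just under the minimum without replicate 2 of Pngl-/-. Of 12 genes of the Dpp and AMPK pathways 1 was higher and 2 lower. The ligand gene dpp had 1.87 and 2.57 CPM in libraries labelled Pngl-/-, against 3.48 and 3.46 CPM in rescue libraries, with a log2 fold change of -0.64, which was -0.43 and not called without replicate 1 of Pngl-/-. AMPKalpha, the catalytic subunit of the energy-sensing kinase, had 72.7 and 69.3 CPM in libraries labelled Pngl-/-, against 69.9 and 66.6 CPM in rescue libraries and was not called.

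Mucins line the gut with glycosylated protein. Of 7 tested 2 were higher and 5 lower. Muc68Ca (FBgn0036181, chr3L:11610578-11620101) had 46.6 and 52.4 CPM in the libraries labelled Pngl-/-, against 559 and 605 CPM in the rescue libraries (log2 fold change -3.55 with SE 0.06, edgeR quasi-likelihood adjusted p = 4.09e-16), and with length offsets its log2 fold change was -2.49. Muc96D had 151 and 170.4 CPM in libraries labelled Pngl-/-, against 810.3 and 878 CPM in rescue libraries, with a log2 fold change of -2.39. Muc55B rose, with 7033 and 7257 CPM in the libraries labelled Pngl-/-, against 2645 and 3063 CPM in the rescue libraries, a log2 fold change of 1.32. By summed level the list was higher, with 8040.1 and 8310.2 CPM in the libraries labelled Pngl-/-, against 5072 and 5659 CPM in the rescue libraries, and Muc55B held the most counts of the list.

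The peritrophic matrix is a chitin and protein sleeve that parts food from the epithelium. Of 14 tested peritrophin genes 3 were higher and 5 lower, and 1 and 5 with length offsets. Peritrophin-15a had 2417 and 2593 CPM in the libraries labelled Pngl-/-, against 1376 and 1294 CPM in the rescue libraries (log2 fold change 0.91 with SE 0.04, edgeR quasi-likelihood adjusted p = 5.49e-11), and obst-A, an organizer of chitin in the cuticle, had 12.5 and 12.4 CPM in libraries labelled Pngl-/-, against 40.3 and 39.8 CPM in rescue libraries, with a log2 fold change of -1.68. The lens and matrix protein gene Crys did not pass the filter, with 17 and 17 counts in the libraries labelled Pngl-/-, against 0 and 0 counts in the rescue libraries. Of 13 genes of chitin deposition 1 was higher and 10 lower, with a median of -1.04. kkv, the chitin synthase of ectodermal epithelia, had 3.99 and 3.66 CPM in the libraries labelled Pngl-/-, against 13.6 and 13.99 CPM in the rescue libraries (log2 fold change -1.85 with SE 0.14, edgeR quasi-likelihood adjusted p = 7.55e-09).

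Smooth septate junctions seal the midgut epithelium. Of 10 septate junction genes listed, not all of them particular to the smooth kind, 4 were higher and 4 lower. The 4 genes higher were Ssk, Tsp2A, hoka and Gli, and the first 3 encode membrane proteins of the smooth junction. Ssk (snakeskin) had 282 and 296 CPM in the libraries labelled Pngl-/-, against 149 and 154 CPM in the rescue libraries (log2 fold change 0.93 with SE 0.04, edgeR quasi-likelihood adjusted p = 5.83e-12), and Tsp2A had 277 and 262 CPM in libraries labelled Pngl-/-, against 143 and 144 CPM in rescue libraries, with a log2 fold change of 0.91. hoka and Gli, named after their values were seen, had log2 fold changes of 0.90 and 0.62. A further membrane protein of the junction, mesh, likewise named, had 338 and 345 CPM in libraries labelled Pngl-/-, against 271 and 266 CPM in rescue libraries, with a log2 fold change of 0.35, under the minimum, though it was 0.88 and called with length offsets. The genes lower included Nrx-IV, with a log2 fold change of -1.27, and dlg1, with -1.24. With length offsets dlg1 stood at -0.17 and was not called, and Nrx-IV at -0.74.

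Cuticular protein genes belong to ectodermal epithelia such as the foregut and hindgut. Of 125 genes 45 were tested, of which 2 were higher and 35 lower, with a median of -1.23, and 1 passed the filter only through the rescue libraries. Cpr78E had 23.01 and 22.1 CPM in the libraries labelled Pngl-/-, against 182 and 183 CPM in the rescue libraries (log2 fold change -3.02 with SE 0.05, edgeR quasi-likelihood adjusted p = 3.81e-16). TwdlO had 5.08 and 5.09 CPM in libraries labelled Pngl-/-, against 37.1 and 35.4 CPM in rescue libraries, with a log2 fold change of -2.83. The summed level of the 125 genes was 5912 and 5816 CPM in the libraries labelled Pngl-/-, against 14840.5 and 16025 CPM in the rescue libraries. These genes are short, with a median of 730 bases, and 35 were again lower with length offsets.

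Genes of protein synthesis and respiration had small positive fold changes. Of 83 genes of cytosolic ribosomal proteins 44 were higher and 0 lower, with a median of 0.60, so that the list lay across the minimum fold change. The number called was 76 with TMM factors on all genes, 0 without composition normalization and 4 with length offsets. The medians under these settings were 0.75, 0.26 and 0.36. RpLP0, of the ribosomal stalk, had 1983 and 1953 CPM in the libraries labelled Pngl-/-, against 1166 and 1148 CPM in the rescue libraries (log2 fold change 0.77 with SE 0.04, edgeR quasi-likelihood adjusted p = 1.00e-10). Of 71 mitochondrial ribosomal protein genes 11 were higher and 0 lower, and of 64 nuclear genes of the respiratory chain 15 were higher and 0 lower. These counts were 1 and 2 higher with length offsets.

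Genes of the mitochondrial genome rose further, with 8 of 10 tested higher, 0 lower and a median of 0.87. The number higher was 7 with length offsets, 10 with TMM factors on all genes and 4 without composition normalization. mt:ND4, a subunit of complex I, had 761 and 803 CPM in the libraries labelled Pngl-/-, against 251 and 277 CPM in the rescue libraries (log2 fold change 1.57 with SE 0.08, edgeR quasi-likelihood adjusted p = 9.92e-11). The log2 fold change of mt:ATPase6 was 1.26. mt:ND4 was also high in Pngl+/-, at 732 and 892 CPM. Of 19 subunit genes of the V-ATPase, the proton pump that acidifies the gut lumen and lysosomes, 7 were higher and 0 lower. With length offsets 4 were higher, and with TMM factors on all genes 10. Without composition normalization 1 was higher and 2 were lower. Vha100-5 had 399 and 393 CPM in the libraries labelled Pngl-/-, against 197 and 217 CPM in the rescue libraries, a log2 fold change of 0.93, with 527 bases of overlap with an antisense transcript.

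**Figure D4:**
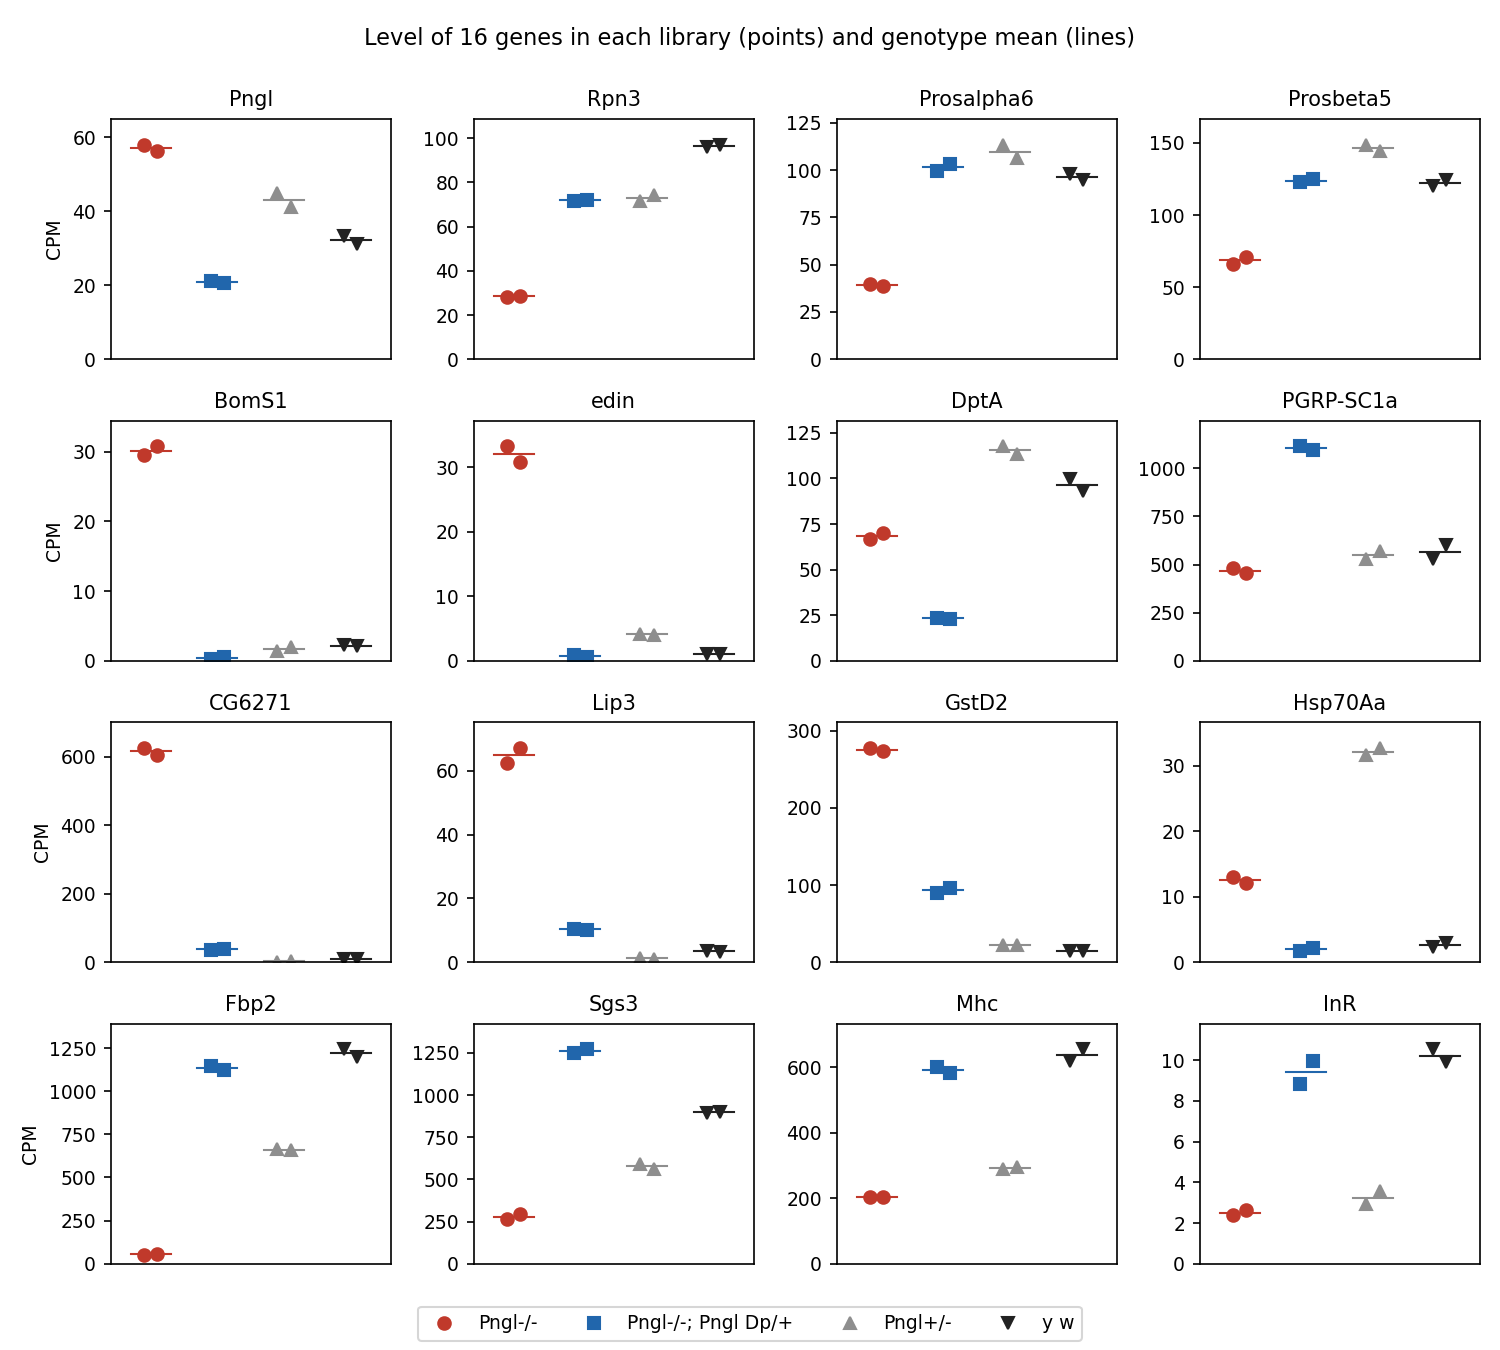
Level in CPM (vertical axes, each from 0) of 16 genes in the 8 libraries, with 2 points and a line at the mean for each genotype, in the order Pngl-/-, Pngl-/-; Pngl Dp/+, Pngl+/- and y w. The libraries labelled Pngl-/- hold the highest values for Pngl, BomS1, edin, CG6271, Lip3 and GstD2, and the lowest for the 3 proteasome genes, Fbp2, Sgs3, Mhc and InR. For DptA and PGRP-SC1a the Pngl-/-; Pngl Dp/+ libraries are the ones that stand apart.

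Single genes gave the largest differences. Cyp6a17 (FBgn0015714, chr2R:14873953-14875739), a cytochrome P450 gene known for its part in temperature preference, had 1 and 1 counts in the libraries labelled Pngl-/-, against 23.7 and 24.6 CPM in the rescue libraries. It was at least 159-fold lower in the libraries labelled Pngl-/-, with 3 counts per library as the floor. Cyp6a17 had 20.6 and 19.5 CPM in Pngl+/- and 34.5 and 33.8 CPM in y w. CG13135 (FBgn0032184, chr2L:10122129-10122771) had 0 and 0 counts in the libraries labelled Pngl-/-, against 10.8 and 10.4 CPM in the rescue libraries, at least 69.97-fold lower. CG14204 (FBgn0031032, chrX:19583617-19587057) was its mirror image, with 10.3 and 10.4 CPM in the libraries labelled Pngl-/-, against 0 and 2 counts in the rescue libraries, at least 91.1-fold higher. For both of these genes the remaining genotypes held little, with 0.517 and 0.481 CPM in Pngl+/- and 1.09 and 1.22 CPM in y w for CG13135 and 0.188 and 0.267 CPM in Pngl+/- and 1.17 and 1.58 CPM in y w for CG14204.

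Among genes with a mean of at least 10 CPM, the 10 with the largest rise included the immune peptide genes BomS1, BomS3, edin, CecA2 and Dro (drosocin), as well as CG6271. The others were AstCC, a neuropeptide gene of the allatostatin C kind, with 21.2 and 18.8 CPM in libraries labelled Pngl-/-, against 0.660 and 0.825 CPM in rescue libraries, with a log2 fold change of 4.72, and lectin-24A, a C-type lectin, which had 99.6 and 99.8 CPM in libraries labelled Pngl-/-, against 4.09 and 3.62 CPM in rescue libraries, with a log2 fold change of 4.70. Cht4, a chitinase, had 259 and 265 CPM in the libraries labelled Pngl-/-, against 17.8 and 18.7 CPM in the rescue libraries (log2 fold change 3.84 with SE 0.05, edgeR quasi-likelihood adjusted p = 2.50e-17), and the uncharacterized gene CG43773 had a log2 fold change of 4.02. Those with the largest fall included CG13461 (FBgn0036468, chr3L:15051931-15052490), with 0.881 and 0.643 CPM in the libraries labelled Pngl-/-, against 73.99 and 76.1 CPM in the rescue libraries (log2 fold change -6.62 with SE 0.11, edgeR quasi-likelihood adjusted p = 4.09e-16). Pngl+/- also held little of CG13461, at 0.564 and 0.854 CPM. sona, a secreted metalloprotease of the ADAMTS kind, had 0.674 and 0.494 CPM in the libraries labelled Pngl-/-, against 20.7 and 19.3 CPM in the rescue libraries, a log2 fold change of -5.08. CG5391, CG31698, CG15553 and an unnamed gene, FBgn0028519, had log2 fold changes of -4.94, -3.95, -3.83 and -5.29.

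One of the 10 largest falls rested on a single library. The antisense transcript asRNA:CR11538, whose exons overlap Lsp2 by 2096 bases, had 0.622 and 1.38 CPM in the libraries labelled Pngl-/-, against 57.5 and 1.27 CPM in the rescue libraries. The values overlapped, and without rescue replicate 1 the log2 fold change was -0.28 in place of -4.76 and was not called. It was also not called without either library labelled Pngl-/-.

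Cytochrome P450 genes had 13 higher and 16 lower of 59, beside 12.1% higher and 22.2% lower over all genes tested, and 1 passed the filter only through the rescue libraries. Cyp4d14 had a log2 fold change of 2.26, and most of its exons overlap an antisense transcript. Cyp4e3 had 2.80 and 2.47 CPM in the libraries labelled Pngl-/-, against 37.2 and 38.98 CPM in the rescue libraries (log2 fold change -3.86 with SE 0.09, edgeR quasi-likelihood adjusted p = 1.09e-14). Of 26 UDP-glycosyltransferases 8 were higher and 7 lower, and 1 passed only through the libraries labelled Pngl-/-. Glycolysis had 1 higher and 2 lower of 13, and Ldh, lactate dehydrogenase, had 50.6 and 48.99 CPM in libraries labelled Pngl-/-, against 93.96 and 93.5 CPM in rescue libraries, with a log2 fold change of -0.91.

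Markers of midgut cells were present in all 4 libraries. mex1, an enterocyte gene, had 524 and 539 CPM in the libraries labelled Pngl-/-, against 221 and 229 CPM in the rescue libraries (log2 fold change 1.24 with SE 0.04, edgeR quasi-likelihood adjusted p = 2.64e-13). Myo31DF, GATAe and cad had log2 fold changes of 0.33, 0.21 and 0.23 and were not called, although Myo31DF stood at 0.87 and was called with length offsets. The gene lab, which marks copper cells, did not pass the filter, with 4.30 and 4.84 CPM in the libraries labelled Pngl-/-, against 3.30 and 3.65 CPM in the rescue libraries. Of 10 enteroendocrine markers, 9 of them peptide hormone genes, 5 were higher and 1 lower (3 and 1 with length offsets). Mip, the gene of the myoinhibitory peptides, had 21.7 and 24.3 CPM in libraries labelled Pngl-/-, against 10.2 and 9.93 CPM in rescue libraries, with a log2 fold change of 1.19. The lower gene was pros, the factor that marks these cells, with 2.28 and 2.08 CPM in libraries labelled Pngl-/-, against 9.94 and 8.63 CPM in rescue libraries, with a log2 fold change of -2.08, in a gene of 24892 bases.

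Markers of muscle, fat body, salivary gland, hemocytes and neurons were lower where called. Of 12 muscle genes 0 were higher and 11 lower, and their summed level was 5042 and 4974 CPM in the libraries labelled Pngl-/-, against 8818 and 8881 CPM in the rescue libraries. Mhc, the muscle myosin heavy chain, had 205 and 204 CPM in the libraries labelled Pngl-/-, against 599.5 and 583 CPM in the rescue libraries (log2 fold change -1.53 with SE 0.04, edgeR quasi-likelihood adjusted p = 2.96e-14), and Act57B, a short muscle actin gene, had a log2 fold change of -1.02. With length offsets 9 of the 12 were lower, and Mhc stood at -0.46 and was not called. In a bulk sample, fewer cells of a type and less RNA per cell cannot be told apart.

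Of 7 fat body markers 0 were higher and 4 lower. Fbp2 (FBgn0000640, chr2L:9426784-9427917), a fat body dehydrogenase-like protein that hormone induces late in the larva, had 50.9 and 56.6 CPM in the libraries labelled Pngl-/-, against 1145 and 1126 CPM in the rescue libraries (log2 fold change -4.40 with SE 0.05, edgeR quasi-likelihood adjusted p = 2.50e-17). Lsp1gamma, a storage protein, had 12757 and 12627 CPM in libraries labelled Pngl-/-, against 13438 and 14217 CPM in rescue libraries, with a log2 fold change of -0.12, so the markers did not fall by 1 factor. Salivary gland markers had 0 higher and 6 lower of 7, and 10 more were under the filter. With TMM factors on all genes, or with RLE factors, another scaling, 4 were lower. The summed level of the 17 was 3822 and 3955 CPM in libraries labelled Pngl-/-, against 7476 and 7651 CPM in rescue libraries. It was 7315 and 7135 CPM in Pngl+/- and 4270 and 4186 CPM in y w. The glue gene Sgs3 had 263 and 293 CPM in the libraries labelled Pngl-/-, against 1252 and 1272 CPM in the rescue libraries (log2 fold change -2.18 with SE 0.05, edgeR quasi-likelihood adjusted p = 6.05e-15), whereas Sgs8 had 555 and 573 CPM in libraries labelled Pngl-/-, against 581 and 573 CPM in rescue libraries and overlapping values. Of 6 hemocyte markers 5 were lower, and 2 with length offsets, and 1 of the 6 was tested only through its level in the rescue libraries. Hml, a clotting protein of hemocytes, had a log2 fold change of -1.44, and -0.37 with length offsets. In Malpighian tubule markers, Uro, a urate oxidase, had 112 and 104 CPM in the libraries labelled Pngl-/-, against 25.9 and 25.4 CPM in the rescue libraries (log2 fold change 2.08 with SE 0.05, edgeR quasi-likelihood adjusted p = 6.27e-15), and NtR went the other way with -1.14. Summed, the 3 tubule markers had 136 and 129 CPM in libraries labelled Pngl-/-, against 58.2 and 59.4 CPM in rescue libraries. Pngl+/- held 119 and 120 CPM and y w 116 and 109 CPM, so the rescue libraries were the outlying ones. Neuron markers elav and nSyb had log2 fold changes of -1.29 and -0.69, both lower, and neither was called with length offsets. elav shares 673 bases of exon with a gene on the other strand. The part of carried-over tissue in the changes above was not tested.

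Sperm leucyl aminopeptidase genes, which are expressed in testis, held 3 and 6 counts summed over 7 genes in the libraries labelled Pngl-/-, against 472 and 632 counts in the rescue libraries. S-Lap1 was at least 29.7-fold lower in the libraries labelled Pngl-/-, and S-Lap7 at least 26.3-fold lower. The noncoding RNAs of male dosage compensation rose. lncRNA:roX1 had 165 and 164 CPM in the libraries labelled Pngl-/-, against 78.5 and 81.2 CPM in the rescue libraries (log2 fold change 1.04 with SE 0.05, edgeR quasi-likelihood adjusted p = 2.73e-11), and lncRNA:roX2 had 11.6 and 13.4 CPM in libraries labelled Pngl-/-, against 2.60 and 2.79 CPM in rescue libraries, with a log2 fold change of 2.20. Of 11 genes of the Y chromosome 2 were tested, Ppr-Y with a log2 fold change of -1.20, which lost its call without replicate 1 of either genotype, and FDY with 0.29, not called. The summed level of the 11 was 14.4 and 12.7 CPM in the libraries labelled Pngl-/-, against 17.0 and 12.9 CPM in the rescue libraries. The sex ratio of the pools is not given in the labels.

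**Figure D5:**
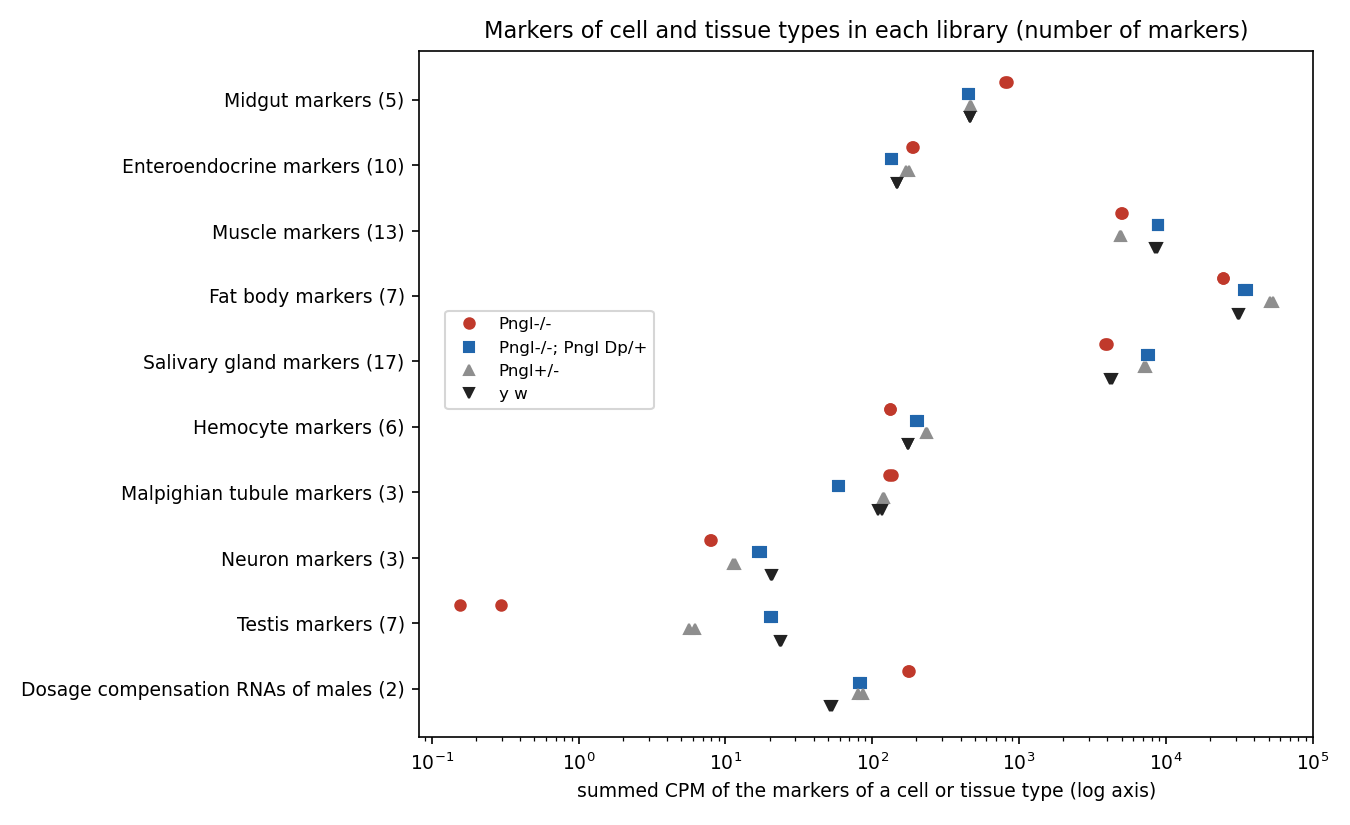
Summed CPM (horizontal log axis) of the markers of 10 cell or tissue types in each library, with the number of markers in brackets. Red circles are Pngl-/-, blue squares Pngl-/-; Pngl Dp/+, grey triangles Pngl+/- and black triangles y w. Testis markers are lowest in Pngl-/-, with 3 and 6 counts, and muscle markers are lower in Pngl-/- and Pngl+/- than in the other genotypes.

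By place in the genome, the arms X, 2L, 2R, 3L and 3R had medians between -0.03 and -0.01, and 10.8% to 13.05% of their genes were higher and 21.0% to 22.8% lower. Chromosome 4 stood apart. Of its 65 tested genes 2 were higher and 44 lower (67.7%), with a median of -0.94. Its genes are long, with a median of 4407 bases of exons, but they were also lower than other genes in each class of 2000 bases or more. The chromosome 4 medians were -0.83 at 2000 to 4000 bases (17 genes), -1.05 at 4000 to 8000 bases (26 genes) and -1.95 at 8000 bases or more (10 genes). The other chromosomes had -0.07, -0.51 and -1.02 in the same classes. The 8 genes of chromosome 4 with 1000 to 2000 bases had a median of 0.10.

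Values are given for a pair of genes of chromosome 4, which encode a muscle protein and a fat body product. bt (FBgn0005666, chr4:724400-776474), a giant muscle protein of the titin kind, had 7.20 and 7.07 CPM in the libraries labelled Pngl-/-, against 47.7 and 49.6 CPM in the rescue libraries (log2 fold change -2.77 with SE 0.08, edgeR quasi-likelihood adjusted p = 6.65e-14). apolpp (FBgn0087002, chr4:1060969-1077273), which encodes the main lipid carrier of the blood and is made in the fat body, had 204 and 202 CPM in the libraries labelled Pngl-/-, against 1070.3 and 1128 CPM in the rescue libraries (log2 fold change -2.44 with SE 0.05, edgeR quasi-likelihood adjusted p = 9.87e-16). With length offsets 2 genes of chromosome 4 were higher and 29 lower (44.6%), with a median of -0.52. The median of chromosome 4 was -0.96 for Pngl-/- against y w and -0.43 against Pngl+/-, contrasts that share the libraries labelled Pngl-/-, and 0.0030 for the rescue libraries against y w.

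Around Pngl, 13 other genes start within 50 kb of its start, and 7 of these were tested. Besides Strica, the gene next to Pngl on the other side is Act42A, a cytoplasmic actin gene, with 472 and 472 CPM in the libraries labelled Pngl-/-, against 339 and 327 CPM in the rescue libraries. Its log2 fold change of 0.50 was under the minimum fold change. SCAP, an escort protein of the sterol factor SREBP, and Tbce, a tubulin chaperone, had log2 fold changes of -0.13 and 0.14 and were not called. mle, a helicase of dosage compensation, and Src42A, a tyrosine kinase, had -0.19 and -0.47 and were not called. BubR1, a mitotic checkpoint kinase near the far edge of this window, was lower, with 1.81 and 2.22 CPM in libraries labelled Pngl-/-, against 4.97 and 5.33 CPM in rescue libraries, with a log2 fold change of -1.35.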

How the data were processed

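Reads were trimmed (cutadapt), mapped on dm6 (STAR 2.5.3) and totalled by the authors over the exons of FlyBase genes, overlapping exons being merged. The version of cutadapt is 1.4 in the submitters' processing notes and another in the methods. The deposited values are raw counts per gene for 17713 genes. The labels give 40 midguts for a genotype and the methods another number for a sample. A stranded mRNA kit was used, but the use of strand in counting is not given. The methods call the 2 libraries of a genotype biological replicates.

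Counts of all 8 libraries were fitted in edgeR 4.0.16 (R 4.3.3), unblocked, with 1 mean for each genotype. The filter kept genes that reached 5 CPM in 2 or more libraries, and TMM factors were computed on these. The quasi-likelihood test was used, with Benjamini-Hochberg adjustment over the 7665 genes, and calls needed a difference of 1.5-fold or more with an adjusted p no higher than 0.05. Standard errors come from that fit. Names, positions and exonic lengths came from an Ensembl annotation of the same assembly, which matched 17582 genes. A gene with at most 3 counts in both libraries of a genotype was given a lower bound.

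Genes were kept in 53 lists, which are described by counts and medians and not tested as sets. The members and lists were chosen with earlier results of these data known. Genes were named by rule: Pngl, Strica, w, y, cnc and the core genes of each list; the 10 largest and 10 smallest changes at a mean of at least 10 CPM; up to 4 called higher and 4 lower per list; genes without counts in 1 genotype; and genes within 50 kb of Pngl. y, by this rule, had 20 and 28 counts in Pngl-/-, against 18 and 11 counts in Pngl-/-; Pngl Dp/+. Marker genes of cell types were named as well. Alternatives were the likelihood ratio test, DESeq2 1.42.0, other scalings and filters, only the 4 libraries, the replicate number as a block, testing against 1.5-fold, each library left out, and length offsets. Python 3.11.15 with pandas 2.3.3 was used for tables. The fit was tested on simulated data. These had a common dispersion, changes balanced between directions and no length trend. They cannot show how scaling or gene length affect the calls. Sequences were not analysed here.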

Additional observations from a re-analysis of the deposited data

How the results depend on the processing

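The counts of 924 higher and 1703 lower genes stayed within 1.5 times under the likelihood ratio test, DESeq2, RLE and upper-quartile factors, median centring, the 4 libraries alone, the test against a fold change of 1.5 and, chosen after seeing the data, length offsets. Leaving out 1 of the 4 libraries at a time gave 930 to 1119 higher and 1555 to 1699 lower. Without composition normalization 373 genes were higher and 2778 lower. With TMM factors on all genes 1541 were higher. With a CPM of at least 1, 1511 were higher of 9762 genes tested, and with no filter 1808 were higher and 3149 lower of 15307. The replicate numbers showed no pairing of the 2 genotypes compared, where the correlation of same-numbered deviations was 0.0048. Over all pairs of genotypes it ran from -0.20 (rescue and y w) to 0.38 (rescue and Pngl+/-). With a replicate block 926 were higher and 1707 lower. No gene called by both was turned by any of these settings. Among the named genes, length offsets turned ACC to 0.25 and cnc to 0.60, by construction for long genes, and lost the call of 50 of 268. Named genes that lost their call without 1 library were Egfr, GstZ2, Jra, Lkb1, Lsp1beta, LysS, Npc1b, Ppr-Y, asRNA:CR11538, bmm, cora, dpp, grnd, nSyb, obst-H, puc and slpr, and genes of the Bomanin list fell under the filter.

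With 2 libraries a genotype the spread rests on all 4 genotypes, and a lone library is assumed to vary like the others. Genes under a CPM of 5 were outside the main test, and 23 tested genes passed only through Pngl-/- and 43 only through Pngl-/-; Pngl Dp/+. The genotypes differ in length trend, in tissue markers and in markers of testis and dosage compensation together, so these cannot be told apart from the genotype.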
